A study of Mus musculus with 16 samples.

Results

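The interferon response genes are the genes that cells switch on when interferons, the cytokines of antiviral and antitumour defence, bind their receptors. Of 31 genes listed by symbol, 29 were measured here, out of 18193 genes on the array, and where a gene had several probe sets, the brightest on average was used. Isg15 and Ifi44 had no probe set that carried their symbol alone, so they have no value here. The list was made of known interferon targets, chosen with earlier results of these data known.

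Type I interferons signal through Ifnar1 and Ifnar2 to a complex that holds Stat2 and Irf9, which binds an element called the ISRE and turns on antiviral genes such as the Ifit, Oas and Mx families. Interferon gamma, made mainly by activated T and natural killer cells, signals through Ifngr1 and Ifngr2 to genes with an element called GAS, and strongly induces Irf1, the guanylate binding proteins, the immunity-related GTPases and the chemokines Cxcl9 and Cxcl10. In liver, hepatocytes, Kupffer cells (the resident macrophages) and infiltrating lymphocytes can all respond.

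The 16 arrays measured RNA of liver from male C3H/HeJ mice, an inbred strain prone to liver tumours that carries a defective Tlr4 and responds poorly to endotoxin. Per the design text, mice of 2 or 6 weeks were injected once with DEN (a carcinogen that alkylates DNA in hepatocytes) at 10 or 90 µg per g of body weight, waited 2 weeks, and then received phenobarbital (PB, a drug that activates the receptor CAR and promotes Ctnnb1-mutated tumours) at 0.05% or none for 28 to 36 weeks. The groups were 7 Ctnnb1-mutated tumours with PB (the gene encodes beta-catenin) and 3 PB control livers without tumour, numbered 4 to 6, and 3 Ha-ras-mutated tumours without PB and 3 untreated control livers. The sample labels give 27 weeks in drinking water and the treatment protocol gives 28 days, so the length and route of PB are not settled by the labels. They tie no array to an animal, and p-values therefore measure the spread between these samples, which may be partly technical. Whether the control livers came from tumour-bearing mice is not stated.

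Array medians lay between 5.03 and 5.10 on the log2 scale, and correlations between arrays over all genes lay between 0.952 and 0.993. In PB control 6 the Gapdh probe set near the 3′ end exceeded the one near the 5′ end by 2.70 on the log2 scale, against −0.15 to 0.32 in the other arrays, and the same array was the lowest of its group for 24 of the 29 interferon genes. Several changes of members that moved by over 1.5 times without it are given both ways. The sizes of interactions and of changes in genes outside the members are not given without it. Of 8 hepatocyte markers, 2 fell in Ctnnb1 tumours, where 5.97% of all genes fell, and 1 rose in Ha-ras tumours, where 7.21% rose. Cps1, a urea cycle enzyme of hepatocytes, lay between 10.65 and 13.94 over the arrays.

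Promoter sequence is shown for 4 members that carry the results: Cxcl10, the 1 member that rose, Igtp, a GTPase that was highest in the same 3 arrays, and Oas1a and Ifit1, antiviral genes with some of the larger changes in Ha-ras tumours and between the control groups. Each window, taken from RefSeq on GRCm38.p6, holds 250 bases before and 50 after the transcript start and is written 5′ to 3′ on the strand of the gene. Cxcl10 lies on the minus strand at chr5:92348840-92349139, Igtp on the plus strand at chr11:58199306-58199605, Oas1a on the minus strand at chr5:120907476-120907775 and Ifit1 on the plus strand at chr19:34640639-34640938. Capitals mark the ISRE core, GAAANNGAAA or its reverse complement TTTCNNTTTC, with overlapping matches written as 1 run.
Cxcl10: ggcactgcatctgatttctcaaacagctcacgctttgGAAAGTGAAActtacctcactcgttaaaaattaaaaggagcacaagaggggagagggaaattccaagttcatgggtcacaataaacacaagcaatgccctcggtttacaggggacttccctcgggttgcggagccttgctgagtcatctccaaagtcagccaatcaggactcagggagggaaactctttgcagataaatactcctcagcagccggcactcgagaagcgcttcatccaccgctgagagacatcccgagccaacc
Igtp: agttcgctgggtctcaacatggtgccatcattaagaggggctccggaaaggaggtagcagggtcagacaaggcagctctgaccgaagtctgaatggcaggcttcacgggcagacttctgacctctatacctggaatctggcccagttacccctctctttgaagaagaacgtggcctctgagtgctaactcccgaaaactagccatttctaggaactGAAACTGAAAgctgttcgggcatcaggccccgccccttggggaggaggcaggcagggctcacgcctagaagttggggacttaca
Oas1a: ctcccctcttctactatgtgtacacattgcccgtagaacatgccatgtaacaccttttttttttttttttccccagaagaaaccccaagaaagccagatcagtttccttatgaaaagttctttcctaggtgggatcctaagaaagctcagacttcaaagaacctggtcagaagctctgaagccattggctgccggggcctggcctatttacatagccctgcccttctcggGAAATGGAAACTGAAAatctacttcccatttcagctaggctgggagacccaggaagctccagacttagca
Ifit1: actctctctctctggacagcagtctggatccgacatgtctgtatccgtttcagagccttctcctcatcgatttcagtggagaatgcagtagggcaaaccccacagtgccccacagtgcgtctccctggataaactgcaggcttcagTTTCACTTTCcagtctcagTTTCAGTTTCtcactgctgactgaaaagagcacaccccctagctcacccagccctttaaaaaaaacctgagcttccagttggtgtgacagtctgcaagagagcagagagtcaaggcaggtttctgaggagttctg
The Cxcl10 match spans bases −213 to −204 relative to the start. The Igtp match spans −34 to −25, and a GAS core, TTCNNNGAA, lies beside it at −45 to −37 in small letters. Oas1a holds a pair of overlapping matches, at −20 to −11 and −14 to −5, with a GAS core at −98 to −90. Ifit1 holds its matches on the other strand at −104 to −95 and −85 to −76.

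Of the 29 measured members, 22 had a promoter window and 7 did not. The ISRE core was found in 14 of the 22 (63.6%), on either strand, against 3.99% of the 27025 genes in the table and 3.44% of its 32851 windows. Among the GTPases and chemokines, 5 of 6 held it, the exception being Cxcl9. The GAS core, which reads the same on both strands, was found in 5 of the 22 (22.7%), namely Oas1a, Bst2, Irf1, Igtp and Ifit2, against 9.55% of genes and 8.30% of windows. A match is only a run of letters, and its absence says only that these letters are not in the window.

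The plot of level by gene and array shows a block of GTPase and chemokine genes that were high in single arrays of 3 groups, while most antiviral genes varied less. Ctnnb1 tumour 7, Ha-ras tumour 3 and untreated control 3 stood out in that block.

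**Figure D1:**
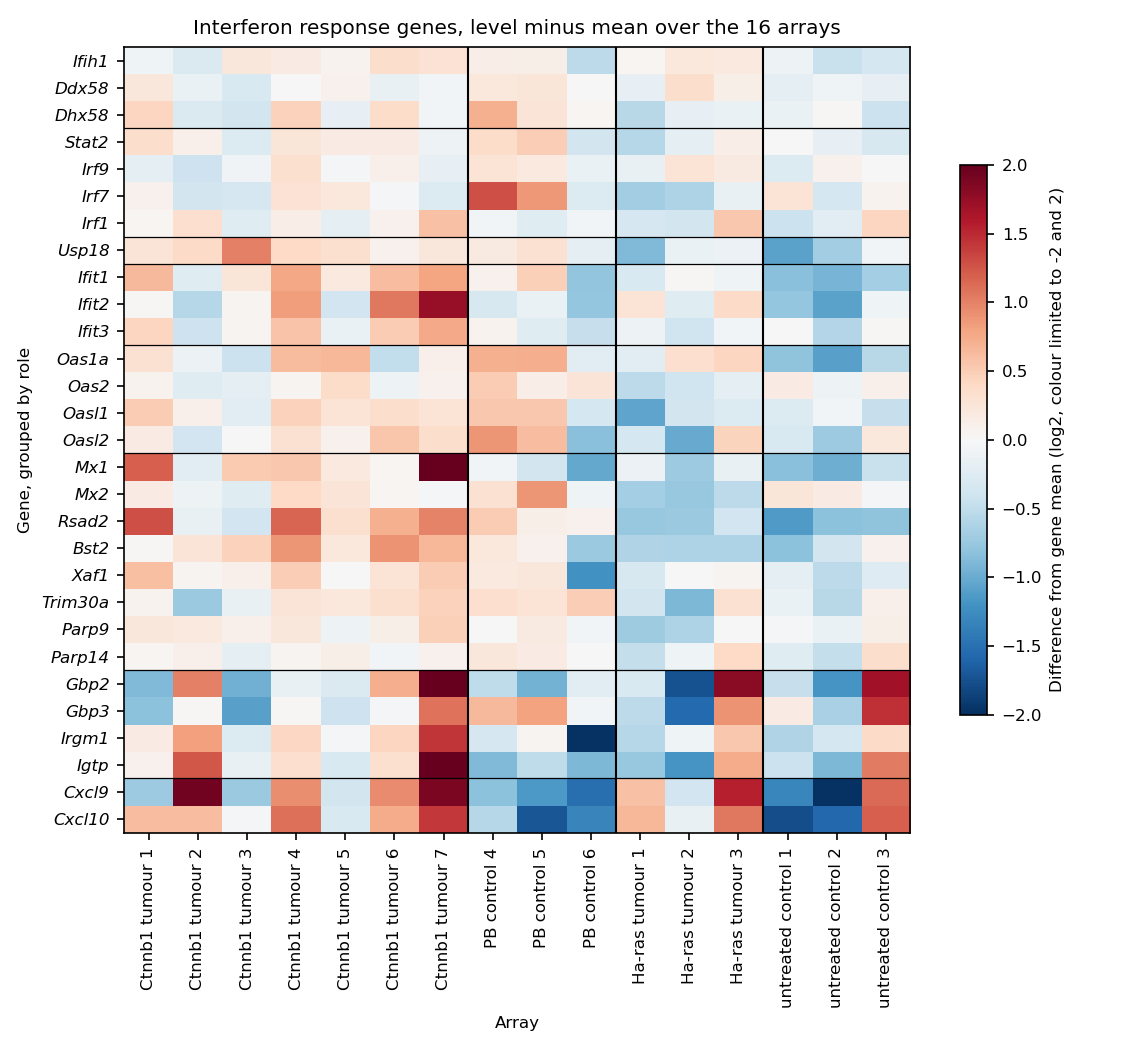
Levels of the 29 measured interferon response genes (rows, grouped by role) in the 16 arrays (columns), as the difference on the log2 scale from each gene's mean over all arrays, with the colour limited at −2 and 2. The GTPases and chemokines stand out in Ctnnb1 tumour 7, Ha-ras tumour 3 and untreated control 3.

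In Ctnnb1 tumours against PB control livers, 1 of the 29 interferon genes rose and 0 fell at an adjusted p under 0.05 in limma, where 6.07% of all genes rose and 5.97% fell. The gene that rose was Cxcl10, and 9 members had an unadjusted p under 0.05, as did 4907 of all 18193 genes. The median change of the 29 was 0.20 on the log2 scale, with 17 above 0 and 12 below, against −0.03 over all genes. All arrays of the tumours lay above those of the controls for 3 members, Igtp, Cxcl9 and Cxcl10, where 12.6% of all genes had arrays that did not overlap in either direction. The share of members that passed was thus not above the background. Without PB control 6, 0 members rose and 1, Irf7, fell, and the median change was 0.0790, with 15 above 0. Ifih1 and Oasl1 then turned direction, to −0.0200 and −0.29.

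In Ha-ras tumours against untreated control livers, 0 of the 29 rose and 1, Mx2, fell, where 7.21% of all genes rose and 6.33% fell. An unadjusted p under 0.05 was seen for 6 members and for 4710 of all 18193 genes. The median change of the 29 was 0.02, with 16 above 0 and 13 below, against −0.04 over all genes. The arrays of tumours and controls did not overlap for 6 members: Ifih1, Ifit1, Oas1a and Rsad2 were higher in the tumours, and Oas2 and Mx2 lower. Over all genes that share was 34.8%, so that nonoverlap between 3 arrays and 3 was common. Without untreated control 3, 1 member rose (Cxcl10) and 1 fell, and the median change was 0.26.

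**Figure D2:**
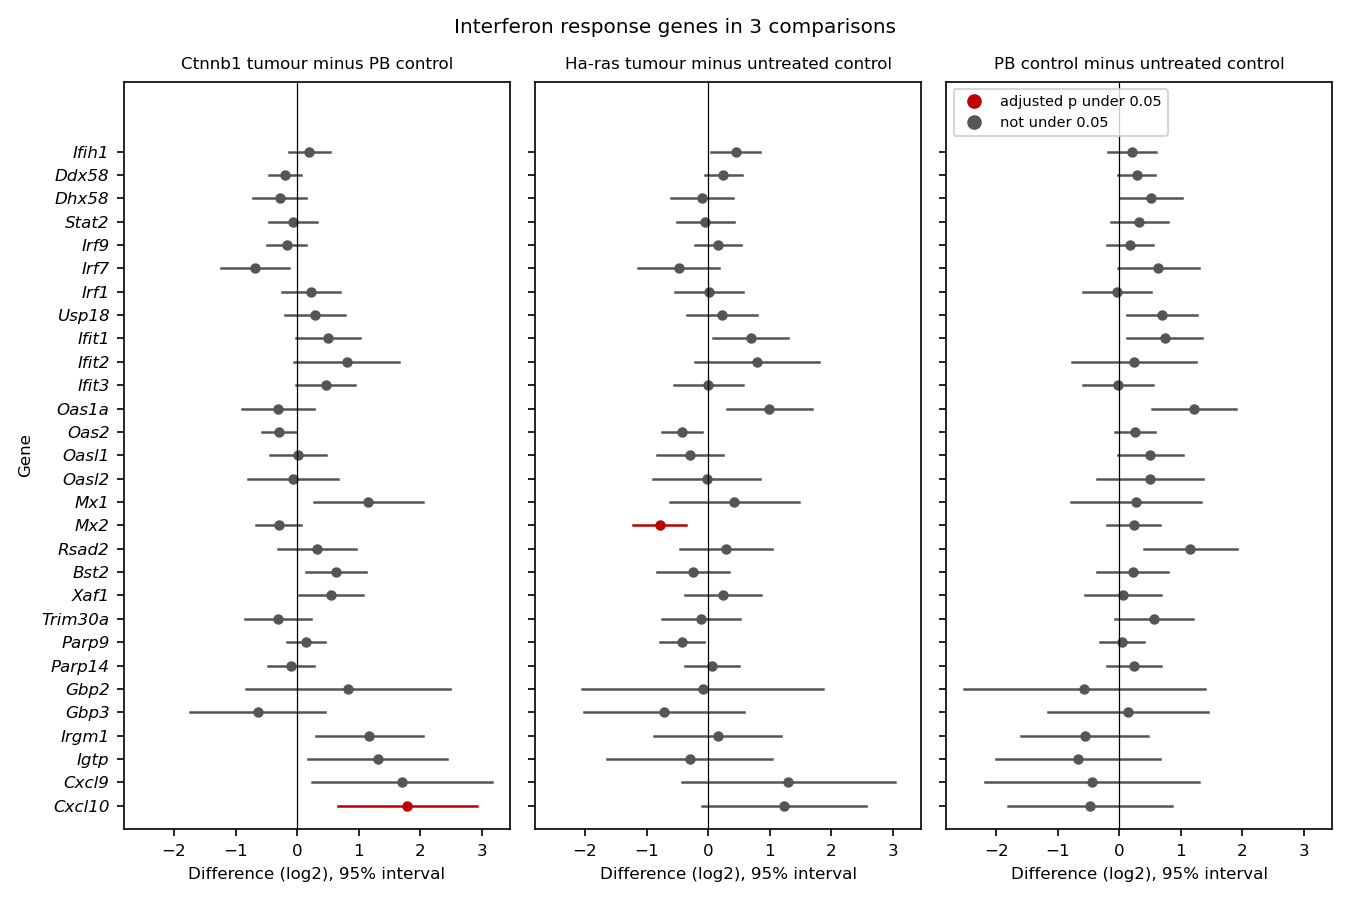
Change of each measured member on the log2 scale with its 95% interval, for Ctnnb1 tumour minus PB control, Ha-ras tumour minus untreated control, and PB control minus untreated control; red marks an adjusted p under 0.05. Cxcl10 in the first panel and Mx2 in the second are the 2 that passed, and the intervals of Gbp2 and Cxcl9 are among the widest.

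The difference between the tumour changes was tested as an interaction, Ctnnb1 effect minus Ha-ras effect. Every Ctnnb1 tumour and its controls had PB, and no Ha-ras tumour or its controls did. The mutation and PB therefore cannot be told apart in this difference. Of the 29 members, 0 passed, where 5.43% of all genes did in either direction. An unadjusted p under 0.05 was seen for 4 members and for 3321 of all 18193 genes. The median difference was 0.07, against 0.01 over all genes. The 3 largest differences were 1.61 ± 0.82 for Igtp (SE, adjusted p = 0.320), −1.31 ± 0.42 for Oas1a (adjusted p = 0.0914) and 1.02 ± 0.64 for Irgm1 (adjusted p = 0.433). The change of Irgm1 in Ctnnb1 tumours, which enters its difference, was 1.17 with all arrays and 0.56 without PB control 6. The Mx2 call in Ha-ras tumours was not shown to differ from Ctnnb1 tumours, with an interaction of 0.49 ± 0.27 (SE, adjusted p = 0.352). For Cxcl10 the interaction was 0.55 ± 0.82 (SE, adjusted p = 0.793).

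Cxcl10 and Cxcl9 are chemokines that draw activated T and natural killer cells through the receptor Cxcr3. Cxcl10 lay between 6.86 and 8.58 in the 7 Ctnnb1 tumours, with a median of 7.78, against 6.60, 5.46 and 5.85 in PB controls. Every tumour lay above every control, and the change was 1.79 ± 0.53 (SE, 95% interval 0.66 to 2.92, 3.46-fold, adjusted p = 0.0381). The call rested on several single arrays: it was lost in 7 of the 16 fits that each left out 1 array, without Ctnnb1 tumour 1, 2, 4, 6 or 7 or PB control 5 or 6, while the change stayed between 1.53 and 2.10 over all alternatives. Without PB control 6 the adjusted p was 0.124, without PB control 5 it was 0.123 and without Ctnnb1 tumour 7 it was 0.0611.

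In Ha-ras tumours Cxcl10 was at 7.83, 7.02 and 8.23, against 5.40, 5.59 and 8.36 in untreated controls. The groups overlapped because untreated control 3 lay above all 3 tumours. The change was 1.24 ± 0.63 (SE, adjusted p = 0.230), and 2.20 with an adjusted p of 0.00644 without untreated control 3.

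In Ctnnb1 tumours Cxcl9 lay between 9.07 and 11.73, with a median of 10.74, against 8.98, 8.66 and 8.30 in PB controls. The arrays did not overlap, by a narrow margin, and the change of 1.71 ± 0.69 did not pass (SE, adjusted p = 0.121). In Ha-ras tumours it was at 10.39, 9.43 and 11.35, against 8.50, 7.83 and 10.93 in untreated controls, a change of 1.30 ± 0.82 (SE, adjusted p = 0.350). The highest arrays of these groups were Ha-ras tumour 3 and untreated control 3, as for Cxcl10.

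The members of the interferon gamma response that attack intracellular pathogens are large GTPases: the guanylate binding proteins Gbp2 and Gbp3, and the immunity-related GTPases Irgm1 and Igtp, of which Irgm1 keeps the others in check. In Ctnnb1 tumours their median change was 0.997, and 0 of 4 passed. Igtp lay between 11.20 and 13.77 in Ctnnb1 tumours, with a median of 11.81, against 10.61, 10.99 and 10.60 in PB controls. All tumours lay above all controls, and the change was 1.31 ± 0.53 (SE, adjusted p = 0.122). Irgm1 lay between 9.67 and 11.37, with a median of 10.34, against 9.60, 10.00 and 7.97 in PB controls, a change of 1.17 ± 0.41 (SE, adjusted p = 0.0749). Without PB control 5 the Irgm1 change was 1.58 with an adjusted p of 0.0344, so that this member passed there, and without PB control 6 it was 0.56 with an adjusted p of 0.452.

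In Ha-ras tumours Igtp was at 10.74, 10.32 and 12.24, against 11.07, 10.60 and 12.55 in untreated controls, and its change was −0.30 ± 0.63 (SE, adjusted p = 0.823). Irgm1 was at 9.37, 9.85 and 10.48, against 9.33, 9.59 and 10.31 in untreated controls. Each group held 1 array well above the others, numbered 3 in both, so that the tumours and the controls covered the same range. Gbp2 had the largest spread of the 29 members: it lay between 6.22 and 9.60 in Ctnnb1 tumours, with a median of 7.04, against 6.67, 6.24 and 6.98 in PB controls. It was at 6.88, 5.44 and 8.996 in Ha-ras tumours, against 6.72, 6.00 and 8.87 in untreated controls. Gbp3 was the exception to the direction of this group in Ctnnb1 tumours, at −0.64 ± 0.52 (SE, adjusted p = 0.471), with 7.06 to 9.23 and a median of 8.13, against 8.80, 8.96 and 8.10 in PB controls. The Gbp family shares sequence, and the kept Gbp2 probe set is of a type that can cross-hybridise, so the member measured is uncertain.

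**Figure D3:**
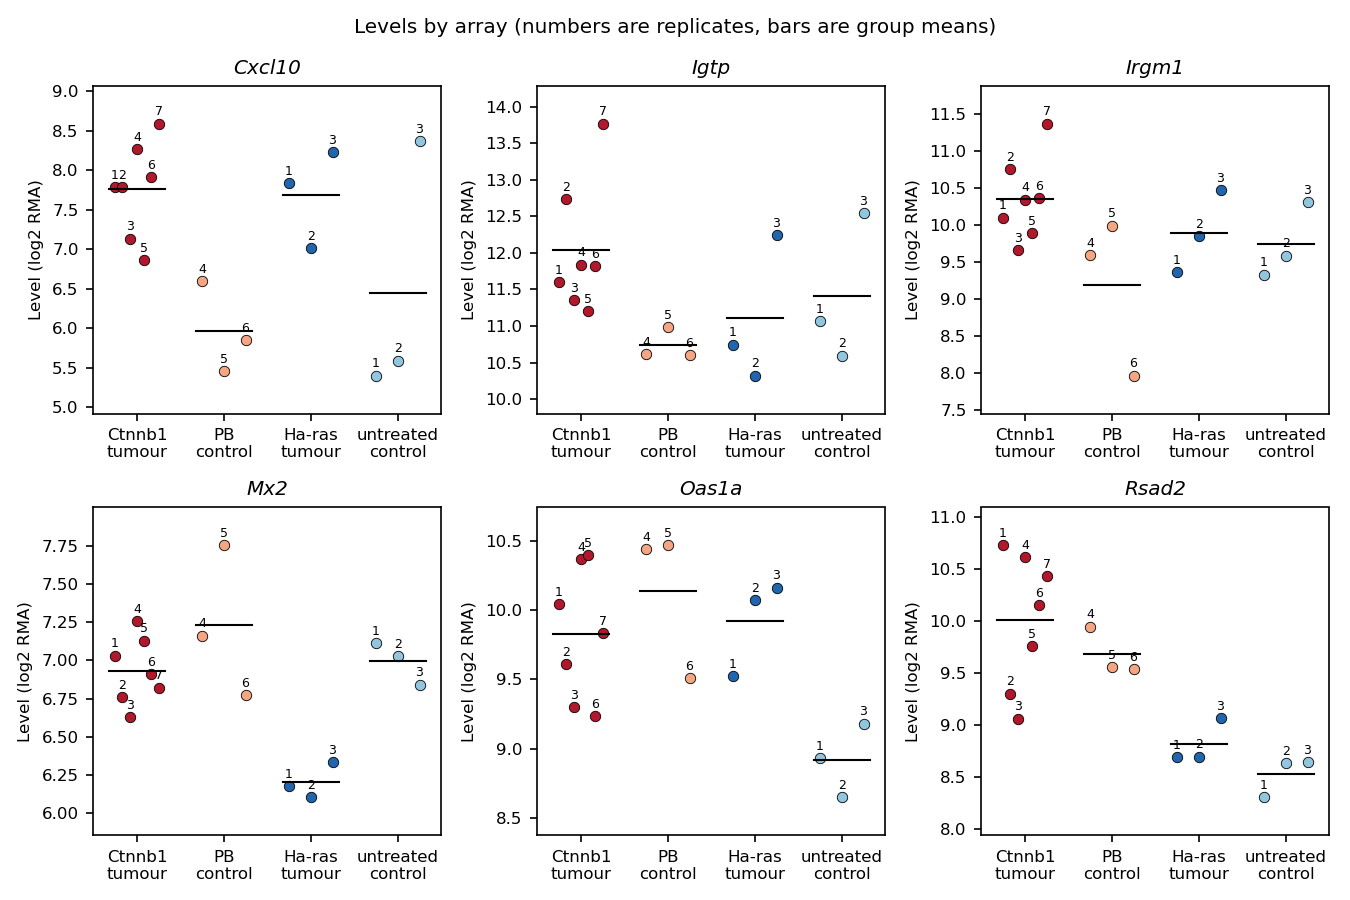
Level by array on the log2 RMA scale for Cxcl10, Igtp, Irgm1, Mx2, Oas1a and Rsad2 in Ctnnb1 tumours, PB controls, Ha-ras tumours and untreated controls; numbers are replicates and bars are group means. Untreated control 3 stands with the tumours for Cxcl10 and above both other untreated controls for Igtp and Irgm1, while the 3 Ha-ras tumours lie below the untreated controls for Mx2.

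The spread between arrays of 1 group was larger for these genes than for most. The within-group SD had a median of 0.389 over the 29 members, against 0.196 over all genes, and 27 members lay above the median of all genes, 22 above its 75th percentile of 0.271 and 13 above its 90th percentile of 0.399. All 6 GTPases and chemokines were among the 13, with Gbp2 at 1.28, Cxcl9 at 1.14, Igtp at 0.873, Cxcl10 at 0.871, Gbp3 at 0.851 and Irgm1 at 0.670. Mx1, at 0.683, and Ifit2, at 0.657, were the widest of the antiviral genes. The steadiest members were Ddx58, at 0.171, and Oas2, at 0.187.

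**Figure D4:**
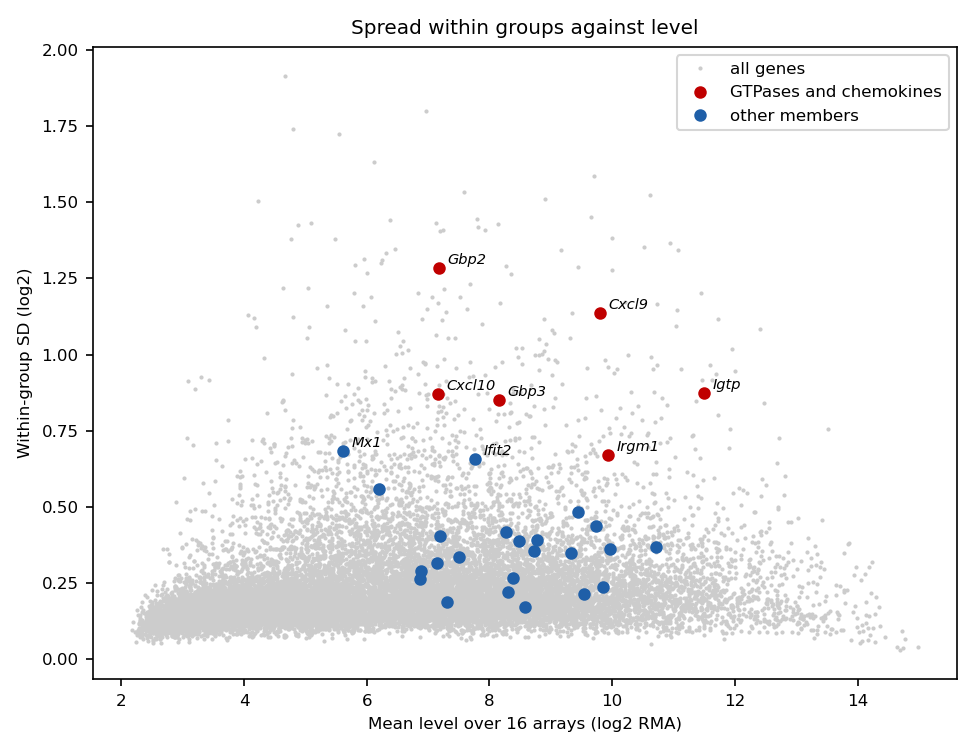
Within-group SD (log2) against mean level over the 16 arrays (log2 RMA) for all genes (grey), the 6 GTPases and chemokines (red) and the other 23 members (blue). The 6 red points run from 0.670 to 1.28, above the 90th percentile of 0.399 over all genes.

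The arrays behind this spread were the same for all 6 GTPases and chemokines in 2 groups. Ha-ras tumour 3 was the highest of its group for 6 of 6, untreated control 3 for 6 of 6, and Ctnnb1 tumour 7 for 5 of 6, with Ctnnb1 tumour 2 the highest for Cxcl9. The mean over these 6 genes, taken as the difference from each gene's mean over all arrays, was 1.75 in Ctnnb1 tumour 7, 1.10 in Ha-ras tumour 3 and 1.15 in untreated control 3. It lay between −0.54 and 0.94 in the other Ctnnb1 tumours, at −0.41, −0.57 and −0.99 in PB controls, at −0.15 and −0.85 in the other Ha-ras tumours, and at −0.74 and −1.11 in the other untreated controls. Untreated control 3 thus lay above Ha-ras tumour 3 and above 6 of the 7 Ctnnb1 tumours. Being highest was not particular to these 6 genes: Ha-ras tumour 3 was the highest of its group for 17 of the other 23 members, untreated control 3 for 13 and Ctnnb1 tumour 7 for 7. For the other 23 members the same mean stayed between −0.14 and 0.44 in Ctnnb1 tumours, between −0.32 and 0.32 in PB controls, between −0.42 and 0.02 in Ha-ras tumours and between −0.44 and −0.14 in untreated controls.

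The summed natural killer and T cell markers were highest of their groups in the same arrays. The sums add unlogged signal, so the brightest markers weigh most, and several of these markers lay below the array medians in every array. Taken singly, 6, 5 and 5 of the 7 natural killer markers were highest in Ctnnb1 tumour 7, Ha-ras tumour 3 and untreated control 3. For the 7 T cell markers the counts were 5, 4 and 5. The summed level of 7 natural killer and cytotoxic markers, on the log2 scale, was 8.57 in Ctnnb1 tumour 7 against 7.39 to 7.89 in the other Ctnnb1 tumours, 8.07 in Ha-ras tumour 3 against 7.48 and 7.28 in the other Ha-ras tumours, and 8.13 in untreated control 3 against 7.70 and 7.53 in the other untreated controls. In PB controls it was 7.79, 7.66 and 7.46. The same arrays led for the sum of 7 T cell markers, at 8.73 in Ctnnb1 tumour 7 against 7.89 to 8.24 in the other Ctnnb1 tumours. The lead was narrower in the other groups. The sum was 8.31 in Ha-ras tumour 3 against 7.88 and 8.08, and 8.23 in untreated control 3 against 8.09 and 8.07. In PB controls the T cell sum was 7.94, 7.92 and 8.15. The sum of 5 general leukocyte markers was 11.11 in Ctnnb1 tumour 7 and 11.11 in Ha-ras tumour 3, the highest of their groups, and 10.80 in untreated control 3. PB control 6 was the highest PB control for that sum, at 10.77, and the lowest for the GTPases and chemokines. Not every lymphocyte marker followed. The sum of 5 B cell markers was 7.59 in Ctnnb1 tumour 7, below 7.80 and 7.66 in Ctnnb1 tumours 1 and 2. It was the highest of its group in Ha-ras tumour 3, at 7.86, and in untreated control 3, at 7.68. Cd8a was the lowest of its group in Ha-ras tumour 3 and untreated control 3, and Prf1 was the highest of its group in none of the 3 arrays. The sum of 5 conventional dendritic cell markers was the highest of its group in all 3 arrays, at 7.97, 7.98 and 7.64. Of these dendritic cell markers 1 fell in Ctnnb1 tumours, where 5.97% of all genes fell. No natural killer, T cell, B cell or general leukocyte marker passed in any of the 4 comparisons in limma. An unadjusted p under 0.05 was seen for 2 B cell markers and 1 general leukocyte marker in Ctnnb1 tumours, 1 B cell marker in the interaction and 1 T cell marker between the control groups. Of all 18193 genes, 4907, 3321 and 2480 had one in these comparisons, in that order. In bulk tissue, fewer cells of a type and less RNA per cell cannot be told apart, and the part of these markers in the chemokine and GTPase levels was not tested.

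**Figure D5:**
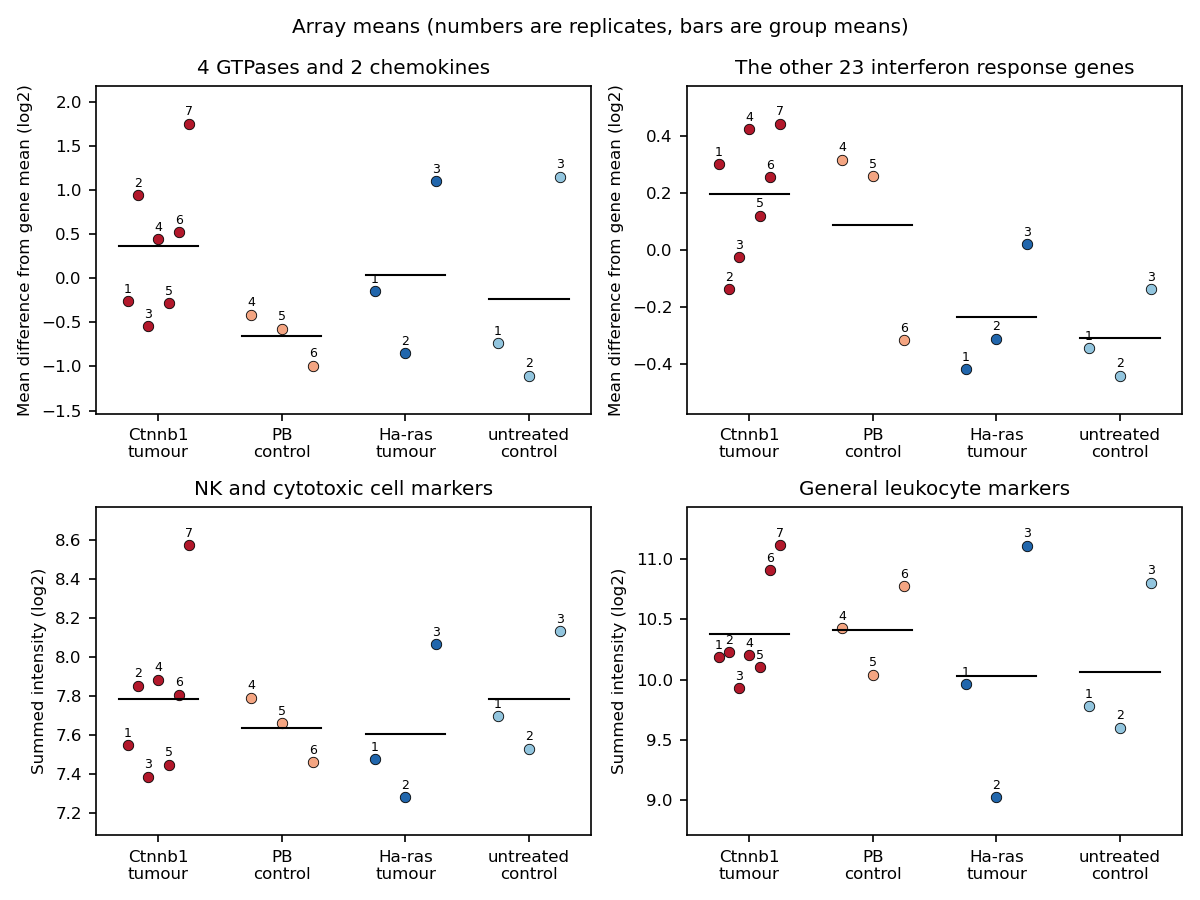
Array means by group, with numbers for replicates and bars for group means: the interferon member sets as the mean log2 difference from each gene's mean over all arrays, and the summed cell type markers on the log2 scale. Ctnnb1 tumour 7, Ha-ras tumour 3 and untreated control 3 are the highest of their groups for the GTPases and chemokines (1.75, 1.10 and 1.15) and for the natural killer markers (8.57, 8.07 and 8.13).

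Of 13 markers of macrophages and Kupffer cells, 0 rose and 3 fell in Ctnnb1 tumours, Clec4f, Folr2 and Cd163, where 5.97% of all genes fell, and 0 rose and 6 fell in Ha-ras tumours, where 6.33% did. Cd68, a marker of macrophages in general, did not pass and changed by 0.83 in Ctnnb1 tumours. Clec4f, a lectin that marks Kupffer cells, changed by −1.95 ± 0.49 in Ctnnb1 tumours (SE, adjusted p = 0.0168, a call lost without PB control 4 and with the replicate block) and by −2.46 ± 0.58 in Ha-ras tumours (SE, adjusted p = 0.0090). The summed macrophage level was 11.37, 11.40 and 13.34 in the 3 Ha-ras tumours, so that Ha-ras tumour 3 stood apart from the other two here as well, against 12.81 to 13.51 in untreated controls. It was 12.33 to 13.21 in Ctnnb1 tumours against 13.06 to 13.66 in PB controls. The part of macrophage content in the interferon gene levels was not tested.

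Of the 8 measured Mx GTPases and other antiviral effectors, 0 passed in Ctnnb1 tumours and 1 in Ha-ras tumours. Mx2, a GTPase of the Mx family, was at 6.18, 6.11 and 6.33 in Ha-ras tumours, against 7.11, 7.03 and 6.84 in untreated controls. All 3 tumours lay below all 3 controls, and it fell by 0.79 on the log2 scale (SE 0.20, 95% interval −1.22 to −0.36, adjusted p = 0.0162). The call was lost without Ha-ras tumour 1 or 2 or untreated control 1 or 2, with adjusted p up to 0.0658. In Ctnnb1 tumours Mx2 lay between 6.63 and 7.26 with a median of 6.91, against 7.16, 7.75 and 6.77 in PB controls, a change of −0.30 ± 0.17 (SE, adjusted p = 0.291), and of −0.52 without PB control 6 (adjusted p = 0.0768).

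Mx1, the related nuclear GTPase whose gene is defective in most laboratory strains, changed by 1.15 ± 0.42 in Ctnnb1 tumours (SE, adjusted p = 0.0848). It lay between 5.41 and 8.03, with a median of 6.14, against 5.57, 5.24 and 4.60 in PB controls, and the highest value was that of Ctnnb1 tumour 7. In Ha-ras tumours it was at 5.50, 4.90 and 5.47, against 4.78, 4.64 and 5.18 in untreated controls. Bst2, or tetherin, which holds budding virus at the cell surface, changed by 0.63 ± 0.23 in Ctnnb1 tumours (SE, adjusted p = 0.0866) and by −0.25 ± 0.27 in Ha-ras tumours (SE, adjusted p = 0.640), and without PB control 6 the first was 0.34. Xaf1, which counters the cell death inhibitor Xiap, changed by 0.55 ± 0.25 in Ctnnb1 tumours (SE, adjusted p = 0.159), and by 0.0790 without PB control 6 (adjusted p = 0.849). Parp9, a member of the Parp family, changed by −0.42 ± 0.17 in Ha-ras tumours (SE, adjusted p = 0.120) and by 0.14 ± 0.14 in Ctnnb1 tumours. Rsad2, or viperin, Trim30a and Parp14 changed by −0.31 to 0.33 in either tumour type, while a dimmer Rsad2 probe set gave 1.49 in Ctnnb1 tumours (adjusted p = 0.0896).

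The Ifit proteins bind viral RNA at its 5′ end. In Ctnnb1 tumours Ifit1, Ifit2 and Ifit3 changed by 0.51, 0.80 and 0.46, and in Ha-ras tumours by 0.69, 0.79 and 0.00, and 0 of 3 passed in either. Without PB control 6 the Ifit1 change in Ctnnb1 tumours was 0.15 (adjusted p = 0.784). Ifit1 was at 8.18, 8.51 and 8.39 in Ha-ras tumours, against 7.64, 7.56 and 7.80 in untreated controls. The arrays did not overlap, and the change was 0.69 ± 0.29 (SE, adjusted p = 0.135). Usp18, which removes Isg15 from proteins and dampens the type I receptor, changed by 0.29 ± 0.23 in Ctnnb1 tumours, or 0.14 without PB control 6, and by 0.23 ± 0.27 in Ha-ras tumours (SE).

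The Oas enzymes make the 2-5A signal that activates the nuclease RNase L. Oas1a was at 9.52, 10.07 and 10.16 in Ha-ras tumours, against 8.93, 8.65 and 9.18 in untreated controls. The 3 tumours lay above the 3 controls, and the change of 0.996 ± 0.32 lay just outside the threshold (SE, adjusted p = 0.0521). In Ctnnb1 tumours it lay between 9.24 and 10.40, with a median of 9.83, against 10.44, 10.47 and 9.51 in PB controls, a change of −0.31 ± 0.27 (SE, adjusted p = 0.511), and of −0.63 without PB control 6 (adjusted p = 0.221). PB controls 4 and 5 lay above every array of either tumour type. Oas2 did not pass in either tumour type and changed by −0.29 ± 0.13 in Ctnnb1 tumours (SE, adjusted p = 0.158) and by −0.42 ± 0.15 in Ha-ras tumours (SE, adjusted p = 0.0815). Oasl1 and Oasl2 changed by −0.30 to 0.01. In Ctnnb1 tumours without PB control 6 they changed by −0.29 (adjusted p = 0.475) and −0.59 (adjusted p = 0.302). Members of the Oas and Ifit families share sequence, so that a probe set may read more than 1 of them.

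The sensors of viral RNA, Ifih1 (MDA5), Ddx58 (RIG-I) and Dhx58 (LGP2), showed no change that passed by the probe sets kept. Ifih1 was at 9.88, 10.06 and 10.03 in Ha-ras tumours, against 9.74, 9.40 and 9.49 in untreated controls, a change of 0.45 ± 0.19 (SE, adjusted p = 0.135). In Ctnnb1 tumours the 3 sensors changed by −0.28 to 0.20, and by −0.43 to −0.0200 without PB control 6.

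Of the transcription factors, 0 of 4 passed in either tumour type. Irf7, which amplifies the production of type I interferon, lay between 7.90 and 8.56 in Ctnnb1 tumours, with a median of 8.25, against 9.56, 9.15 and 8.003 in PB controls. All 7 tumours lay below PB controls 4 and 5, with PB control 6 inside their range, and the change was −0.69 ± 0.26 (SE, adjusted p = 0.0970). Without PB control 6 it was −1.14 with an adjusted p of 0.00447. In Ha-ras tumours Irf7 changed by −0.48 ± 0.31 (SE, adjusted p = 0.364). Irf1, the factor most tied to interferon gamma, changed by 0.22 ± 0.22 in Ctnnb1 tumours and by 0.02 ± 0.26 in Ha-ras tumours (SE). Its highest arrays were Ctnnb1 tumour 7 at 9.91, Ha-ras tumour 3 at 9.87 and untreated control 3 at 9.75, the arrays named above. Stat2 and Irf9, the partners of the ISRE-binding complex, changed by −0.17 to 0.17. In Ctnnb1 tumours without PB control 6 they changed by −0.34 (adjusted p = 0.293) and −0.30 (adjusted p = 0.331).

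In PB control livers against untreated control livers, 0 of the 29 members passed, where 0.214% of all genes did in either direction. An unadjusted p under 0.05 was seen for 5 members and for 2480 of all 18193 genes. The median change was 0.24, with 22 members above 0 and 7 below, against −0.02 over all genes. It was 0.43 without PB control 6 and 0.41 without untreated control 3. The arrays of PB controls lay above those of untreated controls for 5 members, Ddx58, Dhx58, Oas1a, Rsad2 and Trim30a, where 18.8% of all genes did not overlap in either direction. PB and anything else that differed between these livers cannot be told apart. The PB controls also serve the Ctnnb1 comparison and the untreated controls the Ha-ras comparison, so the changes of 1 gene in these comparisons are not independent.

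Oas1a was at 10.44, 10.47 and 9.51 in PB controls, against 8.93, 8.65 and 9.18 in untreated controls, a change of 1.22 ± 0.32 (SE, adjusted p = 0.129). Rsad2, which makes an RNA chain terminator, was at 9.94, 9.55 and 9.53 in PB controls, against 8.30, 8.63 and 8.64 in untreated controls, a change of 1.15 ± 0.35 (SE, adjusted p = 0.174). All PB controls lay above all untreated controls for both genes. The other Rsad2 probe sets gave −0.24 (adjusted p = 0.907) and 1.11 (adjusted p = 0.214), so that its direction depends on the probe set. Ifit1 was at 8.57, 8.96 and 7.69 in PB controls, against 7.64, 7.56 and 7.80 in untreated controls, where PB control 6 lay among the untreated livers, and the change was 0.74 ± 0.29 (SE, adjusted p = 0.274). Usp18 changed by 0.70 ± 0.27 (SE, adjusted p = 0.270). Of the 6 GTPases and chemokines, 5 lay below 0 and Gbp3 was at 0.15, with medians of −0.56 for the GTPases and −0.46 for the chemokines, and 0 of 6 passed. Without untreated control 3, 4 of the 6 lay above 0, with Cxcl9 at 0.48, Cxcl10 at 0.47 and Gbp2 at 0.27. Without PB control 6, Irgm1 was at 0.0512, against −0.56 with all arrays. The interval for the change of Cxcl10, and those of the other 5, included 0.

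The receptor chains of interferon gamma rose in both tumour types. The 15 ligands and receptors listed included 11 measured genes, of which 2 rose in Ctnnb1 tumours and 4 in Ha-ras tumours, and 0 fell in either, where 6.07% and 7.21% of all genes rose. Ifngr1, the ligand-binding chain, lay between 9.39 and 9.94 in Ctnnb1 tumours, with a median of 9.44, against 8.36, 8.24 and 7.98 in PB controls. It was at 9.91, 9.84 and 9.61 in Ha-ras tumours, against 7.998, 8.08 and 8.16 in untreated controls. No array of a tumour overlapped its controls. It rose by 1.40 ± 0.14 in Ctnnb1 tumours (SE, adjusted p = 4.5e-05) and by 1.71 ± 0.16 in Ha-ras tumours (SE), and both calls held under every alternative that was run.

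Ifngr2, the signalling chain, rose by 1.10 ± 0.22 in Ctnnb1 tumours (SE, adjusted p = 0.0043) and by 0.87 ± 0.26 in Ha-ras tumours (SE, adjusted p = 0.0340). PB control 6 was the lowest PB control for Ifngr2, at 5.79 against 7.11 and 6.80, so the size in Ctnnb1 tumours depends on that array. A second, dimmer Ifngr2 probe set gave 0.24 in Ctnnb1 tumours (adjusted p = 0.328) and 0.41 in Ha-ras tumours (adjusted p = 0.164), so that both calls depend on the probe set, and the Ha-ras call was also lost with quantile normalization and without any 1 of the 3 untreated controls or Ha-ras tumours 1 and 2. In Ha-ras tumours Ifnlr1 and Il10rb, the chains of the interferon lambda receptor, rose by 0.86 ± 0.23 (SE, adjusted p = 0.0221) and 0.64 ± 0.17 (SE, adjusted p = 0.0213). Ifnlr1 was at 5.76, 5.92 and 5.66 in Ha-ras tumours, against 4.77, 5.02 and 4.98 in untreated controls, levels near the array median. The rise of Il10rb was 0.19 by its other probe set (adjusted p = 0.411), and both calls were lost in several fits that left out 1 array.

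Genes that carry or brake the signal moved in both directions. Of 20 measured, 0 rose and 3 fell in Ctnnb1 tumours (Irf2, Irf5 and Trim25), and 2 rose (Ikbke and Pias1) and 1 fell (Irf2) in Ha-ras tumours. Over all genes 5.97% fell in Ctnnb1 tumours, and 7.21% rose and 6.33% fell in Ha-ras tumours. Irf2, an antagonist of Irf1 at many promoters, lay between 7.25 and 7.56 in Ctnnb1 tumours, with a median of 7.36, against 8.28, 8.35 and 8.999 in PB controls. It was at 7.75, 7.67 and 8.10 in Ha-ras tumours, against 8.33, 8.44 and 8.57 in untreated controls. No tumour array overlapped its controls, and it fell by 1.17 in Ctnnb1 tumours (SE 0.14) and by 0.61 in Ha-ras tumours (SE 0.16, adjusted p = 0.0210), the second call being lost without untreated control 2 or 3 or Ha-ras tumour 1 or 2. Ikbke, a kinase that activates Irf3 and Irf7, rose by 0.86 ± 0.19 in Ha-ras tumours (SE, adjusted p = 0.0060). Pias1, a SUMO ligase that restrains cytokine signalling, rose by 0.59 ± 0.14 in Ha-ras tumours (SE, adjusted p = 0.0105), although 1 of its other probe sets, a dim one, gave −0.0539. Irf5 and Trim25, a ubiquitin ligase that activates RIG-I, fell in Ctnnb1 tumours by 0.45 and 0.35. These calls were lost with the direction kept in 10 of 25 and 13 of 26 alternatives. A dimmer Trim25 probe set turned the direction, to 0.0383 (adjusted p = 0.937), and the count of 13 leaves it out. Trim25 was the 1 gene of these lists that passed between control groups, at 0.66 ± 0.12 in PB against untreated controls (SE, adjusted p = 0.0412), a call lost in 14 of 25 alternatives.

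Of 32 other interferon-induced genes measured, 0 rose and 3 fell in Ctnnb1 tumours, Ifitm1, Ifitm2 and Sp100, and 0 rose and 1 fell in Ha-ras tumours, Ifitm1, where 5.97% and 6.33% of all genes fell. Ifitm1, a membrane protein that blocks virus entry, lay between 6.40 and 7.43 in Ctnnb1 tumours, with a median of 6.69, against 8.94, 8.38 and 8.76 in PB controls. It was at 6.99, 6.33 and 6.89 in Ha-ras tumours, against 9.20, 8.31 and 8.81 in untreated controls. It fell by 1.87 in Ctnnb1 tumours (SE 0.24, adjusted p = 0.0002) and by 2.03 in Ha-ras tumours (SE 0.28, adjusted p = 0.0001), and neither call was lost under any alternative. Its relative Ifitm2 fell by 0.76 in Ctnnb1 tumours (SE 0.11, adjusted p = 0.0006). Sp100, a protein of nuclear bodies, fell by 0.65 in Ctnnb1 tumours (SE 0.20, adjusted p = 0.0468), a call lost in 14 of 24 alternatives.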

How the data were processed

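RNA of 16 mouse liver samples was hybridised to Affymetrix arrays, 1 array a sample. The deposited unit is log2 signal for each probe set, which the authors made with RMA in R 2.14.1, per the submitters' processing notes. RMA corrects background, makes the distributions of the arrays alike and summarises probes. It can hide a shift common to all genes, and low values may be background. No array file from before RMA was reprocessed.

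Of 45101 probe sets, 64 were controls, 34945 carried 1 gene symbol, 932 several and 9160 none. Symbols came from the platform annotation, and 34741 of those probe sets matched a RefSeq gene (GRCm38.p6) by Entrez identifier, with 0 renamed. The probe set with the highest mean was kept for each of 18193 genes.

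Groups follow the labelled mutation and treatment. Changes were fitted with limma 3.58.1 in R 4.3.3 (statmod 1.5.0, and data.table in version 1.17.8), lmFit with 1 coefficient a group over all 16 arrays and eBayes, and p-values, two-sided, were adjusted across all genes by Benjamini and Hochberg's method, with 0.05 as the threshold for a pass. The fit was also run on simulated arrays with known changes. Their noise was independent between genes, so that run says nothing about effects shared by many genes of an array. Errors are SE of a change with 95% intervals. There were 4 comparisons, and the number of arrays limits the precision.

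The members, pathway lists and marker lists were chosen with earlier results of these data known. Every array, or for the 7 Ctnnb1 tumours the lowest, median and highest, is given for members that passed and for the 3 largest changes of a comparison among those that did not, with further members by value. Pathway genes are named where they passed, at most 8 per list and comparison, and markers likewise, at most 4. Exceptions named after their values were seen include the markers Cd68, Cd8a and Prf1 and the pathway genes Ifng, Psmb8 and Irf8. Alternatives changed the probe set, the filter on dim genes, the arrays in the fit, the scaling and the variance prior, added a replicate block, or left out each array in turn.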

Additional observations from a re-analysis of the deposited data

Results flagged for a closer look

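Among the members and the pathway genes that passed, 42 genes were tested for a single array far from the rest of the 7 Ctnnb1 tumours, and 2 had one. Chance gives such a result in about 1 in 20 groups. Usp18 was 10.97 in Ctnnb1 tumour 3 and 10.36 in the next highest, a gap of 0.664 of the whole range. Pias1 was 7.01 in Ctnnb1 tumour 7 and 7.36 in the next lowest, a gap of 0.591 of the range.

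The change in Ctnnb1 tumours with PB differed from that in Ha-ras tumours without PB for 3 of the 20 measured signalling genes, by the interaction in limma. Over all genes 5.43% passed in either direction. The mutation and PB cannot be told apart in this difference. Jak2, a kinase of the interferon gamma receptor, had a difference of −0.72 (adjusted p = 0.0358). It lay between 7.85 and 8.27 in Ctnnb1 tumours against 8.38, 8.33 and 8.29 in PB controls, and at 8.83, 8.42 and 8.89 in Ha-ras tumours against 8.28, 8.13 and 8.45 in untreated controls. Its other, dimmer probe set gave a difference of −0.0513 (adjusted p = 0.973), with 0.45 in Ctnnb1 tumours, so that the difference depends on the probe set. Pias1 differed by −0.73 (adjusted p = 0.0279), and Trim25 by −0.64 (adjusted p = 0.0277). The calls for Jak2, Pias1 and Trim25 were lost with the direction kept in 14 of 24, 10 of 26 and 9 of 25 alternatives. The Pias1 count leaves out a dim probe set that turned the difference to 0.0643 (adjusted p = 0.920).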

How the results depend on the processing

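With 3 arrays in most groups, changes of members with a wide spread could not be resolved. Over the members and comparisons, 2588 alternative values kept direction and side of the threshold, 26 newly passed, 13 no longer passed and 139 changed sign without passing, and 0 passed with the opposite sign. In Ctnnb1 tumours 1 member passed as reported: with trend and robust eBayes it was 0 (Cxcl10, adjusted p = 0.0530), and with the replicate block 3 (Cxcl9, Igtp and Mx1, Cxcl10 then at 0.0520). In Ha-ras tumours, against 1, there were 2 without dim genes (Oas1a added), 3 with only the arrays compared (Oas1a and Ifit1 added), 2 after median centring (Oas2 added), 3 after quantile normalization (Oas1a and Oas2 added) and 3 with the block (Cxcl9 and Oas1a added). For the interaction the block gave 1 (Oas1a) against 0. No PB member passed under any alternative that was run. Leaving out 1 array gave 0 to 1 members in Ctnnb1 tumours, 0 to 2 in Ha-ras tumours, 0 to 1 for the interaction (Oas1a without PB control 6, Parp9 without Ha-ras tumour 3) and 0 to 0 for PB. Over all genes the block gave 804 against 2192 in Ctnnb1 tumours, and only the compared arrays gave 19 against 39 for PB. Leaving out 1 array gave 1337 (without PB control 6) to 2219, 1698 (without Ha-ras tumour 1) to 3031, 648 to 1177 for the interaction, and 3 (without PB control 4) to 68 (without PB control 5) for PB. Other probe sets turned the direction of Pias1 in Ha-ras tumours (−0.0539) and in the interaction (0.0643), and of Trim25 in Ctnnb1 tumours (0.0383, also the value of its most variable probe set). Among genes that did not pass, 1 of the other Rsad2 probe sets turned the PB change to −0.24. A second Ddx58 probe set fell by 0.46 in Ctnnb1 tumours (adjusted p = 0.00485). The block used the 12 arrays that share a number and treatment, without Ctnnb1 tumours 1, 2, 3 and 7, and could not be fitted for PB, whose groups share no number. Deviations of same-numbered arrays correlated between −0.015 and 0.399, against −0.322 to 0.072 for arrays of different numbers. For Ha-ras tumours 1, 2 and 3 the same-number values were 0.030, 0.399 and 0.238. Not every array correlated best with its own number, so the numbers were not taken as pairs. The labels do not say whether arrays of the same number, such as Ha-ras tumour 3 and untreated control 3, share an animal. The causes were not tested.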

Other observations

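Among the pathway genes that did not pass, several were highest in the arrays with high chemokines and GTPases. They were named after their values were seen. Ifng, the gene of interferon gamma, was at 4.17 in Ctnnb1 tumour 7 and 2.68 to 3.20 in the other Ctnnb1 tumours, and at 3.83 in Ha-ras tumour 3 and 2.87 and 2.72 in the other Ha-ras tumours. It was 2.71, 2.80 and 3.34 in PB controls and 2.78, 2.94 and 3.28 in untreated controls. These levels lie below the array medians of 5.03 to 5.10. Psmb8, a subunit of the immunoproteasome that cuts peptides for display to T cells, was at 10.71 in Ctnnb1 tumour 7 and 8.97 to 10.28 in the other Ctnnb1 tumours, against 9.57, 9.40 and 8.64 in PB controls. It was at 9.87, 9.62 and 11.05 in Ha-ras tumours, against 9.75, 9.01 and 10.65 in untreated controls. Irf8, a factor of myeloid cells, was at 7.17 in Ctnnb1 tumour 7, at 6.09, 5.44 and 7.38 in Ha-ras tumours, and at 5.97, 5.93 and 7.05 in untreated controls.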
